A study of Homo sapiens with 8 samples.

Results

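The 8 genes described here, HMGCS1, IDI1, FDPS, FDFT1, SQLE, LSS, DHCR7 and INSIG1, are 7 enzymes of cholesterol synthesis and a sterol sensor. They were chosen by name, with earlier results of these data known, and all 8 were among the 12939 genes with values in every library. RNA-Seq had been done on cancer stem cells (CSCs) sorted by flow cytometry from MDA-MB-231, an established line of triple-negative breast cancer. The cells carried an shRNA in 3 groups, namely scramble as negative control (n = 3), CDH2 shRNA against N-cadherin (n = 3) and Cx43 shRNA against connexin 43, the GJA1 product (n = 2). According to the methods, CSCs were the cells with the highest GFP from a reporter of the Oct4a regulatory region, and shRNA cells were gated on red fluorescence, in all 3 groups. The methods name 1 clone, B, as the one chosen for CDH2 shRNA. Each group rests on a single cell line, and the labels name neither a clone for a library nor separate cultures for replicates, so p-values measure the spread between these libraries, which may be technical.

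Cholesterol is made from acetyl-CoA in a long series of steps. HMG-CoA is made and leads to mevalonate, mevalonate is turned into isoprenoid diphosphates, farnesyl diphosphate is joined head to head into squalene, and squalene is closed into lanosterol, which is trimmed to cholesterol. Transcription of nearly all of these enzymes is driven by SREBP2, a membrane-bound factor that SCAP carries from the endoplasmic reticulum to the Golgi when sterols are scarce and that INSIG proteins hold back when sterols are plentiful. INSIG1 is itself a target of SREBP2, so the pathway and its brake are transcribed together.

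SREBP2 binds sterol regulatory elements in promoters, usually beside sites for NF-Y and Sp1. RefSeq promoters of GRCh38.p14, from 250 bases before to 50 after the start, were found for 6 of the 8 members, 10 promoters in all. The letters CCAAT of the NF-Y box occurred on either strand in 7 of the 10, beside 34.6% of all 35116 promoters, and GGGCGG of the Sp1 box in 9 of the 10, beside 45.0%. The sterol regulatory element TCACNCCAC was found in 0 of the 10, beside 1.13% of all promoters, and its shorter form CACNCCAC, which lies within it, in 2 of the 10, beside 5.87%. The promoters below belong to FDPS and IDI1, the members with the lowest adjusted p with CDH2 shRNA. Those of HMGCS1 and INSIG1, which open and restrain the pathway, follow. Only the bases upstream of every GENCODE v44 exon are printed, 5′ to 3′ on the strand of the gene, with matches to CACNCCAC, CCAAT and GGGCGG on either strand in capitals.
FDPS, plus strand, chr1:155308616-155308747: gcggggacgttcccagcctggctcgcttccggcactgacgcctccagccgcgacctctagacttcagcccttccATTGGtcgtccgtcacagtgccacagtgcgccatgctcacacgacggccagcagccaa
IDI1, minus strand, chr10:1049120-1049369: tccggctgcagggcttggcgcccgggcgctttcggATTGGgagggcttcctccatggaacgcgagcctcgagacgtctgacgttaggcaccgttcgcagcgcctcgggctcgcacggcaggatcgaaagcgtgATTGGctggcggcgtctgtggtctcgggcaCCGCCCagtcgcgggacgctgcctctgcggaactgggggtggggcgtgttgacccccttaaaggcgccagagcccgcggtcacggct
HMGCS1, minus strand, chr5:43313513-43313662: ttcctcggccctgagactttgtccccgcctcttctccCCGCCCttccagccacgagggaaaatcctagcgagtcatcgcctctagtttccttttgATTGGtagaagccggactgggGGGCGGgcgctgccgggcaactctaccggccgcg
INSIG1, plus strand, chr7:155297628-155297775: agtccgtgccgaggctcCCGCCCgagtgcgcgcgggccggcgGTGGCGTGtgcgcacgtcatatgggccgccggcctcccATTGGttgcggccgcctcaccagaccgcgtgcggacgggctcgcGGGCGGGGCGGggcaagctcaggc
The printed stretch of INSIG1 held the shorter sterol element once, as GTGGCGTG on the opposite strand, followed by an NF-Y box. The stretches of FDPS, IDI1 and HMGCS1 held the NF-Y box and no shorter sterol element. Of IDI1, another promoter with the shorter element lies almost wholly in annotated exons and is not printed. A match is a description of letters and not a shown binding site. Other spellings of the sterol element were not searched, so a stretch without these letters is not shown to lack one.

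The genes lie on 7 chromosomes of hg38 by GENCODE v44. They are HMGCS1 (chr5:43287470-43313512, minus strand), IDI1 (chr10:1039152-1049119, minus), FDPS (chr1:155308748-155320666, plus), FDFT1 (chr8:11795573-11839395, plus), SQLE (chr8:124998497-125022283, plus), LSS (chr21:46188141-46228824, minus), DHCR7 (chr11:71428193-71452868, minus) and INSIG1 (chr7:155297776-155310235, plus). GENCODE names 8 pseudogenes of FDPS and 3 of IDI1, and an antisense transcript overlaps each of these 2 genes (RUSC1-AS1 and IDI2-AS1). Genes with only an Ensembl identifier overlap HMGCS1, FDFT1, LSS and DHCR7 on the opposite strand. Among other genes reported below, for example, TCP1 and SOD2 overlap ACAT2 on the opposite strand, and VPS51 overlaps TM7SF2 on the same strand. FADS1 and FADS2, on opposite strands, overlap each other. Whether the counting used the strand or split reads with such copies is not stated. The values of all these genes are uncertain to that extent.

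All deposited values are log2(CPM + 1), where CPM is the count of a gene scaled to the size of its library, after removal of a sequencing run effect. Fold changes are on this scale, which understates the change of low genes. The depth is unknown, since the values hold no read counts. Within each replicate number the deviations of the libraries from their group means sum to 0, so scramble 3 and CDH2 shRNA 3, the only libraries of number 3, deviate by equal amounts in opposite directions in every gene. Libraries of a number are thus not independent of each other. All 10 markers of mesenchymal breast lines such as VIM and CD44 were measured, with a summed level of 3500 to 3520 CPM in scramble, 3300 to 3500 in CDH2 shRNA and 3440 to 3600 in Cx43 shRNA. Luminal markers were 2 of 10 (EPCAM and CLDN4), at 72.4 to 77.6, 55.8 to 61.8 and 68.4 to 73.0 CPM, and the defining ESR1, GATA3 and CDH1 had no values. Fibroblast markers were 2 of 7 (COL1A1 and PDGFRB), at 53.7 to 66.3, 40.4 to 52.6 and 29.6 to 40.2 CPM, and leukocyte markers 0 of 6. The part of EPCAM, CLDN4, COL1A1 and PDGFRB RNA in the results was not tested. In such bulk libraries, fewer cells of a type and less RNA per cell cannot be told apart. CDH2 and GJA1 transcripts were not analysed here, which leaves the knockdowns unchecked at the RNA of their targets.

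In scramble CSCs the members covered a wide range of levels. Per kilobase of transcript, FDPS, which makes farnesyl diphosphate, was the highest at 89.8 ± 1.37 CPM per kb (SD, n = 3), above 95.4% of the genes with an annotated length. FDFT1, the squalene synthase that commits farnesyl diphosphate to sterols, followed at 35.2 ± 2.36 CPM per kb. Next came the lanosterol synthase LSS at 18.9 ± 2.14, the final reductase DHCR7 at 18.2 ± 1.11, INSIG1 at 13.9 ± 1.78 and the HMG-CoA synthase HMGCS1 at 12.1 ± 1.91 CPM per kb. The squalene epoxidase SQLE, at 6.19 ± 0.522, and the isopentenyl diphosphate isomerase IDI1, at 5.96 ± 0.291 CPM per kb, were lowest. LSS and DHCR7, INSIG1 and HMGCS1, and SQLE and IDI1 were neighbours whose ranges overlapped, so their order was not fixed by these libraries. With CDH2 shRNA the level of FDPS was 64.0 ± 1.41 and that of IDI1 4.25 ± 0.304 CPM per kb, and FDPS remained the highest and IDI1 the lowest. With Cx43 shRNA FDPS was at 92.6 ± 1.32 and IDI1 at 6.19 ± 0.740 CPM per kb (n = 2).

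The first question was how the members compared between CDH2 shRNA and scramble. FDPS and IDI1 lay lower with CDH2 shRNA, by fold changes of 1.40 and 1.37. They passed the test with 3 residual degrees of freedom and not with 2, the number of directions in which the residuals vary. With 2, 170 of 12939 genes were called lower. The other 6 members lay below scramble without passing the test. All 8 fitted log2 fold changes were below 0, with a median of −0.28, beside 49% of all genes below 0 and a median of 0.01. By limma, 2 of 8 had an adjusted p under 0.05, beside 6.98% of all genes in this direction, and 4 of 8 an unadjusted p under 0.05, against 4855 of 12939 genes in either direction. No member reached the fold threshold of the methods for this comparison, 0.73 on the log2 scale, together with an adjusted p under 0.05, which 1.2% of all genes did as lower. The 3 CDH2 shRNA libraries lay below all 3 scramble libraries for 4 members (IDI1, FDPS, FDFT1 and DHCR7), beside 24.8% of all genes.

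**Figure D1:**
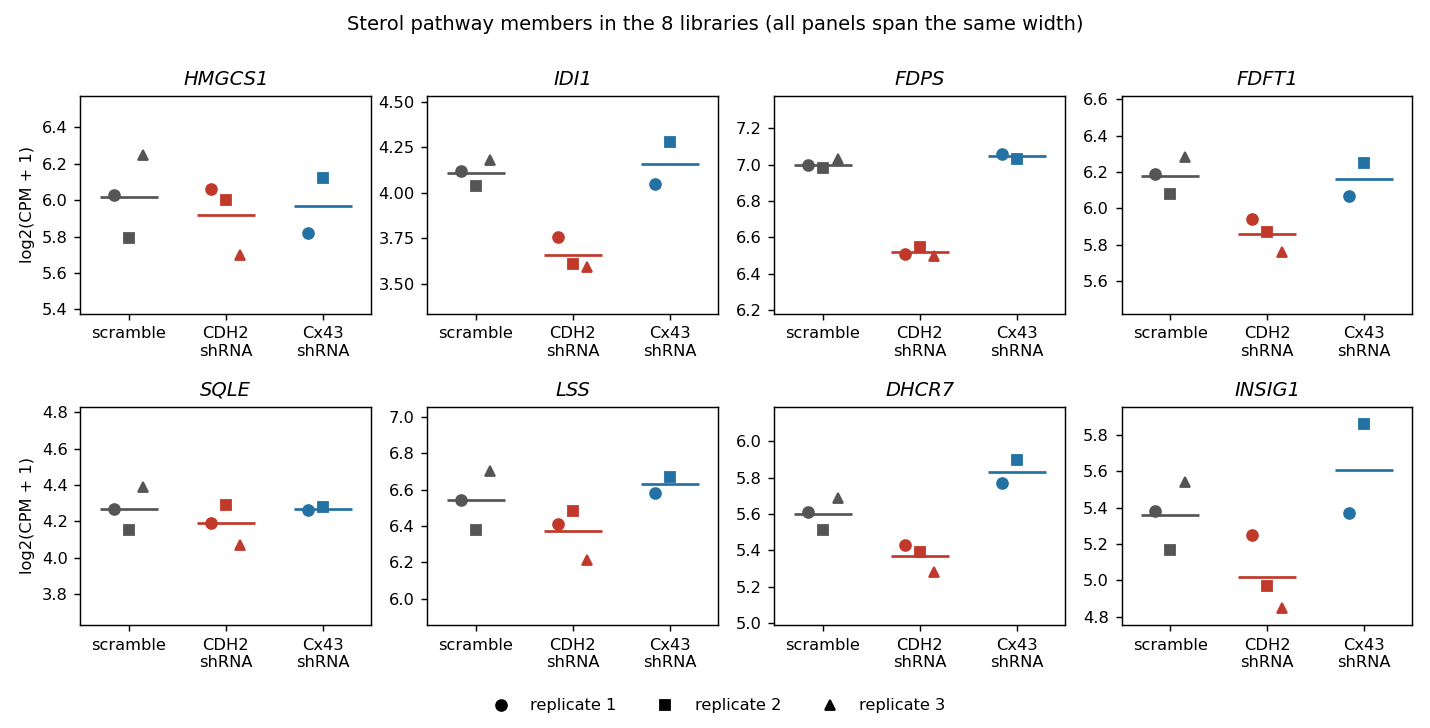
Values of the 8 members in each library as log2(CPM + 1), with a point per library shaped by replicate number and a bar at the group mean. FDPS, IDI1, FDFT1 and DHCR7 are lower in every CDH2 shRNA library than in every scramble library, while HMGCS1 and SQLE overlap in all 3 groups.

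At the entry to the pathway, HMGCS1 condenses acetoacetyl-CoA with acetyl-CoA. Its values were 6.03, 5.79 and 6.25 in scramble 1 to 3, 6.06, 6.0 and 5.70 in CDH2 shRNA 1 to 3, and 5.82 and 6.12 in Cx43 shRNA 1 and 2. The 3 groups overlapped, and scramble libraries differed from each other more than the group means did. The log2 fold change for CDH2 shRNA was −0.10 ± 0.17 (SE, adjusted p = 0.704), with a 95% interval from −0.53 to 0.33. That interval holds both a decrease of the size of FDPS and no change.

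The isoprenoid steps gave the clearest differences. IDI1, which turns isopentenyl into dimethylallyl diphosphate, measured 4.12, 4.04 and 4.18 in scramble, 3.76, 3.61 and 3.59 in CDH2 shRNA, and 4.05 and 4.28 in Cx43 shRNA. All 3 CDH2 shRNA libraries were below the other 5. Its log2 fold change with CDH2 shRNA was −0.46 ± 0.10 (SE, adjusted p = 0.0435). FDPS, the enzyme that nitrogen-containing bisphosphonates inhibit, measured 7.0, 6.98 and 7.03 in scramble, 6.51, 6.55 and 6.50 in CDH2 shRNA, and 7.06 and 7.03 in Cx43 shRNA. Its CDH2 shRNA libraries were nearly equal to each other and below every other library. The log2 fold change was −0.48 ± 0.07 (SE, adjusted p = 0.0223), with a 95% interval from −0.66 to −0.30.

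Both calls depended on the number of residual directions in the model. The block of replicate numbers leaves 3 residual degrees of freedom, and the deposited values vary in 2. With 2, the adjusted p was 0.0828 for FDPS and 0.112 for IDI1, and in a fit of scramble and CDH2 shRNA alone it was 0.0589 and 0.0675. The fit of these 2 groups alone called 0 of all 12939 genes. Without the block, adjusted p was 3.71e-04 for FDPS and 0.0046 for IDI1, and FDFT1 and DHCR7 were then also called (0.0144 and 0.0296). Of all 12939 genes, 2696 were then called lower, against 903 with the block. Leaving out scramble 1, CDH2 shRNA 1 or CDH2 shRNA 2 left 0 of 8 members called. Adjusted p was then 0.0751 to 0.205 for FDPS and 0.118 to 0.255 for IDI1. A fit without a Cx43 shRNA library leaves 1 in that group, so only its log2 fold changes are given, −0.48 for FDPS and −0.46 for IDI1. Leaving out scramble 2, scramble 3 or CDH2 shRNA 3 left both called. The log2 fold changes stayed between −0.51 and −0.46 for FDPS and between −0.54 and −0.39 for IDI1 in all 8 fits. Over all genes, 0 were called lower without CDH2 shRNA 1 or CDH2 shRNA 2, and 4 without scramble 1. Without scramble 2 that count was 822, and without scramble 3 or CDH2 shRNA 3 it was 2600.

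FDFT1 and DHCR7 lay below scramble with smaller differences. FDFT1 measured 6.19, 6.08 and 6.28 in scramble, 5.94, 5.87 and 5.76 in CDH2 shRNA, and 6.07 and 6.25 in Cx43 shRNA. The CDH2 shRNA libraries did not overlap those of scramble, and its log2 fold change was −0.33 ± 0.10 (SE, adjusted p = 0.0806). DHCR7, which reduces the last double bond on the way to cholesterol and is mutated in Smith-Lemli-Opitz syndrome, measured 5.61, 5.51 and 5.69 in scramble, 5.43, 5.39 and 5.28 in CDH2 shRNA, and 5.77 and 5.90 in Cx43 shRNA. Its groups were fully ordered, CDH2 shRNA lowest and Cx43 shRNA highest, with a log2 fold change of −0.23 ± 0.09 (SE, adjusted p = 0.132) for CDH2 shRNA.

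The enzymes between squalene and lanosterol overlapped between groups. SQLE, the oxygen-requiring step that terbinafine blocks in fungi, measured 4.27, 4.15 and 4.39 in scramble, 4.19, 4.29 and 4.07 in CDH2 shRNA, and 4.26 and 4.28 in Cx43 shRNA. LSS measured 6.54, 6.38 and 6.70 in scramble, 6.41, 6.48 and 6.21 in CDH2 shRNA, and 6.58 and 6.67 in Cx43 shRNA. For both, CDH2 shRNA 2 was above scramble 2 and CDH2 shRNA 3 was the lowest library. The log2 fold changes with CDH2 shRNA were −0.08 ± 0.10 for SQLE (SE, adjusted p = 0.581) and −0.17 ± 0.13 for LSS (adjusted p = 0.354).

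INSIG1, the sensor that retains SCAP in the endoplasmic reticulum, had the widest range over the 8 libraries. It measured 5.38, 5.17 and 5.54 in scramble, 5.25, 4.97 and 4.85 in CDH2 shRNA, and 5.37 and 5.86 in Cx43 shRNA. CDH2 shRNA 1 overlapped scramble, and CDH2 shRNA 3 was the lowest and Cx43 shRNA 2 the highest library. The log2 fold change with CDH2 shRNA was −0.34 ± 0.19 (SE, adjusted p = 0.243).

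Within replicate numbers, 5 of 8 members (INSIG1, IDI1, FDFT1, FDPS and DHCR7) were below scramble of the same number in every CDH2 shRNA library. The share of all genes that were so was not computed, so the count describes these members only. The median difference over the members was −0.16 in number 1, −0.16 in number 2 and −0.52 in number 3, and all 8 members had their lowest difference in number 3. FDPS was the most even, at −0.49, −0.43 and −0.53. HMGCS1 was the least so, at 0.03, 0.21 and −0.54. Without CDH2 shRNA 3, or equally without scramble 3, 6 of 8 members were below 0 with a median log2 fold change of −0.16, and HMGCS1 and SQLE stood at 0.12 and 0.03.

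**Figure D2:**
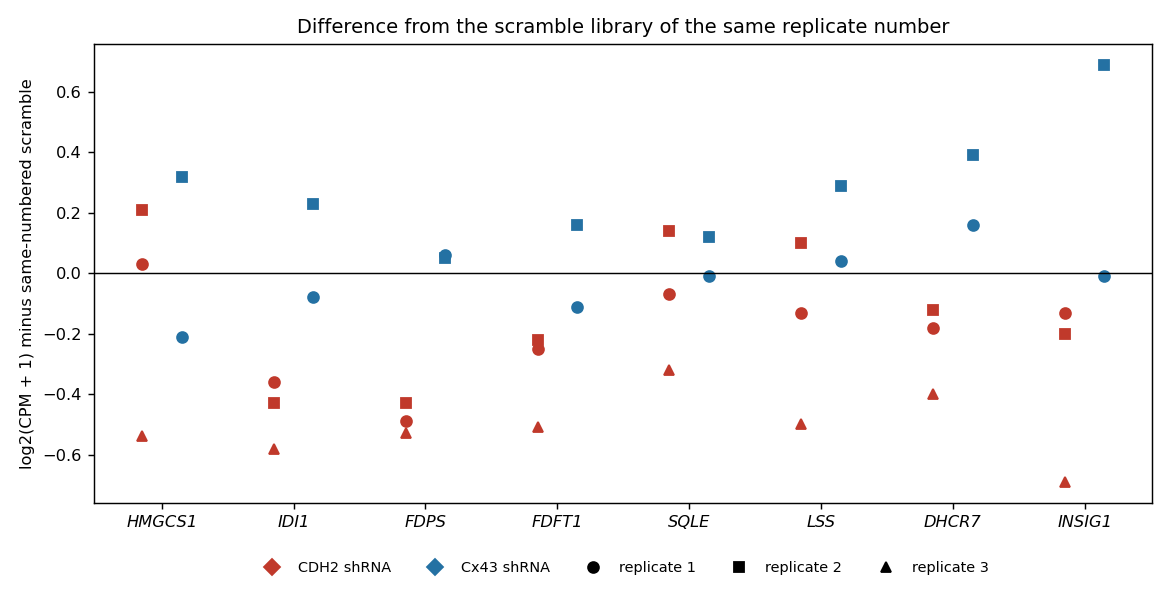
Difference of each CDH2 shRNA (red) and Cx43 shRNA (blue) library from the scramble library of the same replicate number, in log2(CPM + 1), for the 8 members in pathway order with INSIG1 last. FDPS differences with CDH2 shRNA lie between −0.53 and −0.43, while those of HMGCS1 run from −0.54 to 0.21.

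Another 14 enzymes of cholesterol synthesis showed how far the differences ran along the pathway. With CDH2 shRNA 13 of 14 were below 0, with a median log2 fold change of −0.30. Of these 14, 5 fell with an adjusted p under 0.05, beside the 6.98% of all genes, and 0 rose. They were ACAT2, the cytosolic acetoacetyl-CoA thiolase (−0.51 ± 0.07, adjusted p = 0.0209), PMVK, phosphomevalonate kinase (−0.58 ± 0.12, adjusted p = 0.0356), MVD, the decarboxylase that yields isopentenyl diphosphate (−0.57 ± 0.12, adjusted p = 0.0363), TM7SF2, a sterol C14 reductase (−0.61 ± 0.10, adjusted p = 0.0266), and EBP, the sterol isomerase (−0.52 ± 0.10, adjusted p = 0.0344). ACAT2 was the most uniform of them, at 7.22, 7.24 and 7.21 in scramble, 6.69, 6.72 and 6.73 in CDH2 shRNA and 7.04 and 7.0 in Cx43 shRNA. PMVK, MVD, IDI1 and FDPS are consecutive enzymes, from mevalonate phosphate to farnesyl diphosphate. With 2 residual degrees of freedom 0 of the 14 were called, beside 170 of all 12939 genes called lower. The lowest adjusted p of the 14 was then 0.0644, for TM7SF2. Leaving out scramble 1, CDH2 shRNA 1 or CDH2 shRNA 2 also left 0 called, beside 4, 0 and 0 of all genes called lower. Leaving out scramble 2 gave 6, beside 822 of all genes. Leaving out scramble 3 or CDH2 shRNA 3 gave 7, beside 2600 of all genes.

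MSMO1, the methylsterol oxidase, was lower in every CDH2 shRNA library, at 5.25, 5.06 and 4.92 against 5.64, 5.45 and 5.78, and its log2 fold change of −0.55 ± 0.16 missed the threshold (adjusted p = 0.0694). LBR, a C14 reductase that is also a lamin receptor of the nuclear envelope, was the only enzyme of the 21 above 0. Its log2 fold change was 0.35 ± 0.10 (adjusted p = 0.0713), and its values did not overlap, at 6.82, 6.71 and 6.93 in scramble and 7.22, 7.22 and 7.06 in CDH2 shRNA. TM7SF2 and LBR catalyse the same C14 reduction.

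Over the 21 enzymes, members and others together, 20 were below 0 with CDH2 shRNA (95.2%), 7 were called lower and 16 lay below scramble in every library, beside 6.98% of all genes called lower and 24.8% not overlapping. With 2 residual degrees of freedom 0 of the 21 were called, beside 170 of all 12939 genes called lower. With only the 2 groups in the fit, 0 of the 21 and 0 of all genes were called. Without CDH2 shRNA 3, or without scramble 3, 17 of 21 were below 0. The 7 called enzymes were ACAT2, PMVK, MVD, IDI1, FDPS, TM7SF2 and EBP.

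**Figure D3:**
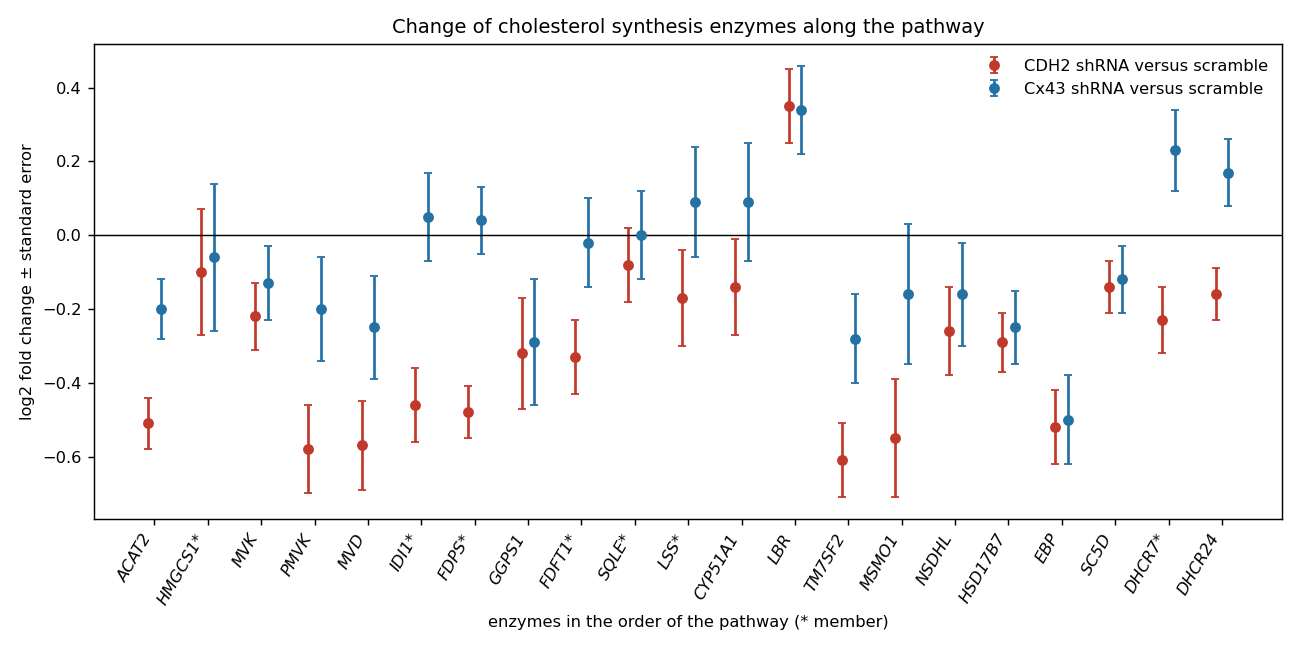
Fitted log2 fold change versus scramble with its standard error for 21 enzymes in the order of the pathway, CDH2 shRNA in red and Cx43 shRNA in blue, with members starred. With CDH2 shRNA 20 of 21 points lie below 0 and LBR above it, while with Cx43 shRNA 13 lie below 0.

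Transcript length and base composition moved with the result. Over 11888 genes with an annotated transcript, the log2 fold change of CDH2 shRNA versus scramble had a Spearman correlation of 0.50 with transcript length and −0.36 with GC content, across genes that share the libraries. For Cx43 shRNA versus scramble these were 0.13 and −0.20. The 7 called enzymes had a median transcript of 1.52 kb (1.00 to 2.74) and 55.0% GC. The other 14 enzymes had 2.93 kb (1.53 to 6.85) and 46.5% GC, and all genes 3.26 kb and 48.2%. With CDH2 shRNA fold changes corrected for length and GC content, all 8 members and 20 of 21 enzymes were still below 0, with medians of −0.28 for the members and −0.28 for the enzymes beside 0.01 for all genes. FDPS then stood at −0.28 (adjusted p = 0.112), IDI1 at −0.52 (adjusted p = 0.0254) and HMGCS1 at −0.31 (adjusted p = 0.147). ACAT2 at −0.43, PMVK at −0.27, MVD at −0.30, EBP at −0.29 and IDI1 had an adjusted p under 0.05 after the correction, and TM7SF2 at −0.34 did not (adjusted p = 0.0768). The differences of FDPS, ACAT2, PMVK, MVD, TM7SF2 and EBP were thus smaller than before it, and those of IDI1 and HMGCS1 larger.

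**Figure D4:**
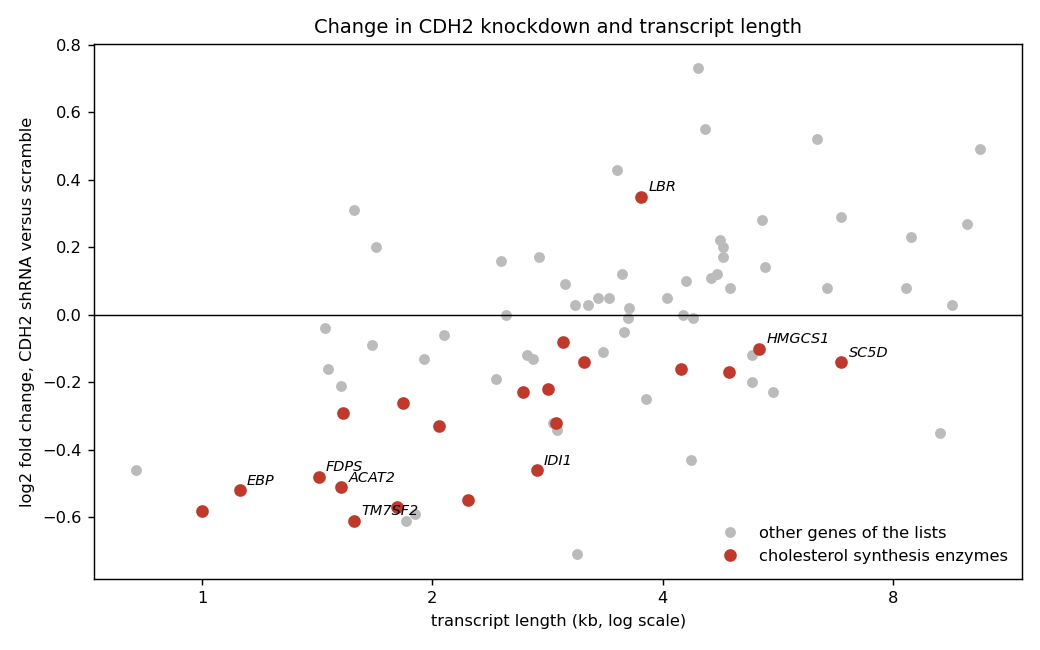
Log2 fold change of CDH2 shRNA versus scramble against transcript length in kb on a log axis, for the 21 cholesterol synthesis enzymes (red) and the other listed genes with an annotated transcript (grey). The called enzymes lie at 1.00 to 2.74 kb, and HMGCS1 and SC5D have longer transcripts and log2 fold changes of −0.10 and −0.14.

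The second question was how the members compared between Cx43 shRNA and scramble. No member changed by the test, and the fitted log2 fold changes ran from −0.06 for HMGCS1 to 0.25 for INSIG1. Of the 8, 6 were above 0 and 2 below, with a median of 0.05 beside 0.04 for all genes, and with quantile normalization 4 were below 0. By limma 0 of 8 had an adjusted p under 0.05 in either direction, beside 1.21% of all genes, and 0 of 8 an unadjusted p under 0.05. FDPS and DHCR7 were above every scramble library in both Cx43 shRNA libraries, as were 31.4% of all genes, and 0 members were below, as were 21.4%. DHCR7 had the lowest adjusted p, 0.294, for a log2 fold change of 0.23 ± 0.11 (SE), with a 95% interval from −0.04 to 0.50. For FDPS the estimate was 0.04 ± 0.09, with an interval from −0.17 to 0.25.

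The 2 Cx43 shRNA libraries differed from each other in the members. Relative to the same-numbered scramble library, 3 of 8 members were higher in number 1 and 8 of 8 in number 2, with medians of −0.01 and 0.26. The shares of all genes higher in each number were not computed. INSIG1 differed by −0.01 in number 1 and 0.69 in number 2, and HMGCS1 by −0.21 and 0.32. FDPS stayed at 0.06 and 0.05. Of the other 14 enzymes 11 were below 0 with Cx43 shRNA and 0 were called, beside 1.21% of all genes in either direction. With no replicate block 3 of the 14 were called lower and 2 higher, beside 1330 and 1810 of all 12939 genes. With only the 2 groups 1 was called lower and 1 higher, beside 1241 and 1566 of all genes. EBP had the largest difference, −0.50 ± 0.12 (adjusted p = 0.107), at 5.07 and 4.94 in Cx43 shRNA against 5.49, 5.61 and 5.39 in scramble. EBP was called after the length and GC correction (−0.44, adjusted p = 0.0426) and with no replicate block (adjusted p = 0.00786). LBR stood at 0.34 ± 0.12 (adjusted p = 0.188). These comparisons share the scramble libraries, so their values are set side by side and their likeness is not read.

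The knockdowns were compared directly to ask whether the members differed between CDH2 and Cx43 shRNA. All 8 members were lower with CDH2 shRNA, with a median log2 difference of −0.38 beside −0.03 for all genes, and none passed the test. By limma 0 of 8 members, and 0 of 12939 genes (0%), had an adjusted p under 0.05, while 5 of 8 members and 2591 of all genes had an unadjusted p under 0.05. Every CDH2 shRNA library lay below both Cx43 shRNA libraries for 6 members, all but HMGCS1 and SQLE, beside 29.1% of all genes. The differences were −0.53 ± 0.09 for FDPS (SE, adjusted p = 0.115), −0.50 ± 0.12 for IDI1 (adjusted p = 0.146), −0.47 ± 0.11 for DHCR7 (adjusted p = 0.143) and −0.59 ± 0.22 for INSIG1 (adjusted p = 0.227). Without the block of replicate numbers, FDPS, IDI1, DHCR7 and FDFT1 were called (adjusted p = 0.00214, 0.0107, 0.0087 and 0.0457). Over all genes 2784 of 12939 were then called, against 0 with the block. Without scramble 2, 2 members were called, and without scramble 3 or CDH2 shRNA 3, 3 members. Over all genes, 865 were called without scramble 2 and 2131 without scramble 3 or CDH2 shRNA 3. The smallest differences were those of HMGCS1, at −0.04 ± 0.20 with a 95% interval from −0.55 to 0.46, and SQLE, at −0.09 ± 0.12 with an interval from −0.39 to 0.21. These intervals do not show that HMGCS1 and SQLE were alike in the knockdowns.

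Genes that activate or restrain SREBP gave no member called lower. Of 12 such genes 0 fell and 2 rose with CDH2 shRNA by an adjusted p under 0.05, beside 7.29% of all genes as higher. The median was 0.02, and −0.04 after the length and GC correction, which covered 11 of them. MBTPS2, the site-2 protease that releases SREBP from the Golgi membrane, rose by 0.73 ± 0.16 on the log2 scale (adjusted p = 0.0386), a value at the fold threshold. MBTPS2 was below the threshold after the length and GC correction, at 0.56, and ranged from 0.56 to 0.95 without a library. It measured 4.6, 4.38 and 4.81 in scramble, 5.39, 5.49 and 5.12 in CDH2 shRNA and 4.75 and 4.87 in Cx43 shRNA. ERLIN1, a protein of lipid rafts in the endoplasmic reticulum, rose by 0.43 ± 0.08 (adjusted p = 0.0291). With 2 residual degrees of freedom both were not called (adjusted p = 0.0607 and 0.108).

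SREBF2, which encodes SREBP2, measured 7.05, 6.91 and 7.17 in scramble, 6.95, 6.88 and 6.72 in CDH2 shRNA, and 7.25 and 7.47 in Cx43 shRNA. It overlapped between scramble and CDH2 shRNA and was highest in both Cx43 shRNA libraries. Its log2 fold changes were −0.20 ± 0.12 with CDH2 shRNA (adjusted p = 0.283), 0.32 ± 0.14 with Cx43 shRNA (adjusted p = 0.266) and −0.51 ± 0.14 between the knockdowns (adjusted p = 0.163). SREBF1, which encodes the SREBP1 forms, stood at 0.08 ± 0.22 with CDH2 shRNA and 0.55 ± 0.26 with Cx43 shRNA (adjusted p = 0.813 and 0.287). SCAP stood at 0.00 and 0.18, and INSIG2, the relative of INSIG1 whose transcription does not depend on SREBP, at −0.05 and −0.10, none of them called.

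Uptake and transport genes were mostly near scramble with CDH2 shRNA. Of 12 genes of this list, 1 fell and 0 rose with CDH2 shRNA, beside 6.98% of all genes as lower and 7.29% as higher. The median was 0.04, and −0.03 after the length and GC correction. The gene that fell was NPC2, the lysosomal protein that hands cholesterol to NPC1 (−0.46 ± 0.09, adjusted p = 0.0334). NPC2 was not called with 2 residual degrees of freedom (adjusted p = 0.0986) or after the length and GC correction (−0.27, adjusted p = 0.0613). GRAMD1C, a sterol transfer protein of the endoplasmic reticulum, stood at −0.25 with CDH2 shRNA and 0.25 with Cx43 shRNA and was not called. TMEM97, the sigma-2 receptor, was furthest from 0 with Cx43 shRNA, at 5.65, 5.74 and 5.57 in scramble against 5.95 and 5.93, and was not called (0.29 ± 0.11, adjusted p = 0.195).

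Among 7 measured genes of efflux, LXR and esterification, 2 fell and 1 rose with CDH2 shRNA, beside 6.98% of all genes as lower and 7.29% as higher. NR1H3, which encodes LXR alpha, fell by 0.61 on the log2 scale (SE 0.09, adjusted p = 0.0209), and CYP27A1, which makes an oxysterol ligand of LXR, fell by 0.59 (SE 0.10, adjusted p = 0.0253). NCEH1, a cholesteryl ester hydrolase, rose by 0.55 ± 0.10 (adjusted p = 0.0288). With 2 residual degrees of freedom NR1H3, CYP27A1 and NCEH1 were not called (adjusted p = 0.06, 0.0662 and 0.0744). ABCA1, the efflux pump that LXR induces, was variable, at 4.34, 3.85 and 4.79 in scramble, 5.10, 5.00 and 4.35 in CDH2 shRNA and 4.77 and 5.37 in Cx43 shRNA, and did not pass the test (0.49 ± 0.34 and 0.74 ± 0.39). CH25H, the enzyme of 25-hydroxycholesterol, differed in opposite directions, at 0.20 ± 0.12 with CDH2 shRNA and −0.69 ± 0.14 with Cx43 shRNA (adjusted p = 0.278 and 0.0851). Their direct difference was 0.89 ± 0.14 (adjusted p = 0.115).

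Of 13 genes of fatty acid synthesis, which SREBP1 is known to drive, 2 fell and 1 rose with CDH2 shRNA, beside 6.98% of all genes as lower and 7.29% as higher, and the median was 0.08 (−0.16 after the length and GC correction). Both that fell are desaturases of polyunsaturated fatty acids, FADS2 (−0.71 ± 0.11, adjusted p = 0.0248) and FADS1 (−0.43 ± 0.07, adjusted p = 0.0268). FADS2 measured 7.09, 6.99 and 7.16 in scramble, 6.49, 6.33 and 6.29 in CDH2 shRNA and 6.90 and 7.16 in Cx43 shRNA, and it was the only one of these calls that held with 2 residual degrees of freedom (adjusted p = 0.0491). GPAM, the mitochondrial glycerol-3-phosphate acyltransferase, rose by 0.52 ± 0.11 (adjusted p = 0.0405) and was not called after the length and GC correction (0.28, adjusted p = 0.0588). SCD stood at −0.12 ± 0.32 with CDH2 shRNA and 0.67 ± 0.37 with Cx43 shRNA (adjusted p = 0.804 and 0.358). In the isoprenoid branch, which uses the products of IDI1 and FDPS for ubiquinone, dolichol and prenylation, 0 of 15 genes were called, with a median of 0.03. The furthest from 0 there were PDSS1 at 0.31 with CDH2 shRNA, ICMT at 0.33 with Cx43 shRNA and COQ2 at −0.22 between the knockdowns. With Cx43 shRNA 0 genes of these 5 lists were called, beside 1.21% of all genes in either direction. That count depended on the fit. With no replicate block, 5 SREBP genes were called higher, 1 uptake gene lower and 1 higher, 2 efflux genes lower and 1 higher, 1 fatty acid gene lower and 1 higher, and 1 isoprenoid gene higher. With only the 2 groups in the fit, 3 SREBP genes and 3 fatty acid genes were called higher, and 2 efflux genes lower and 1 higher. Of all 12939 genes, 1330 were called lower and 1810 higher with no replicate block. With only the 2 groups these counts were 1241 and 1566.

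**Figure D5:**
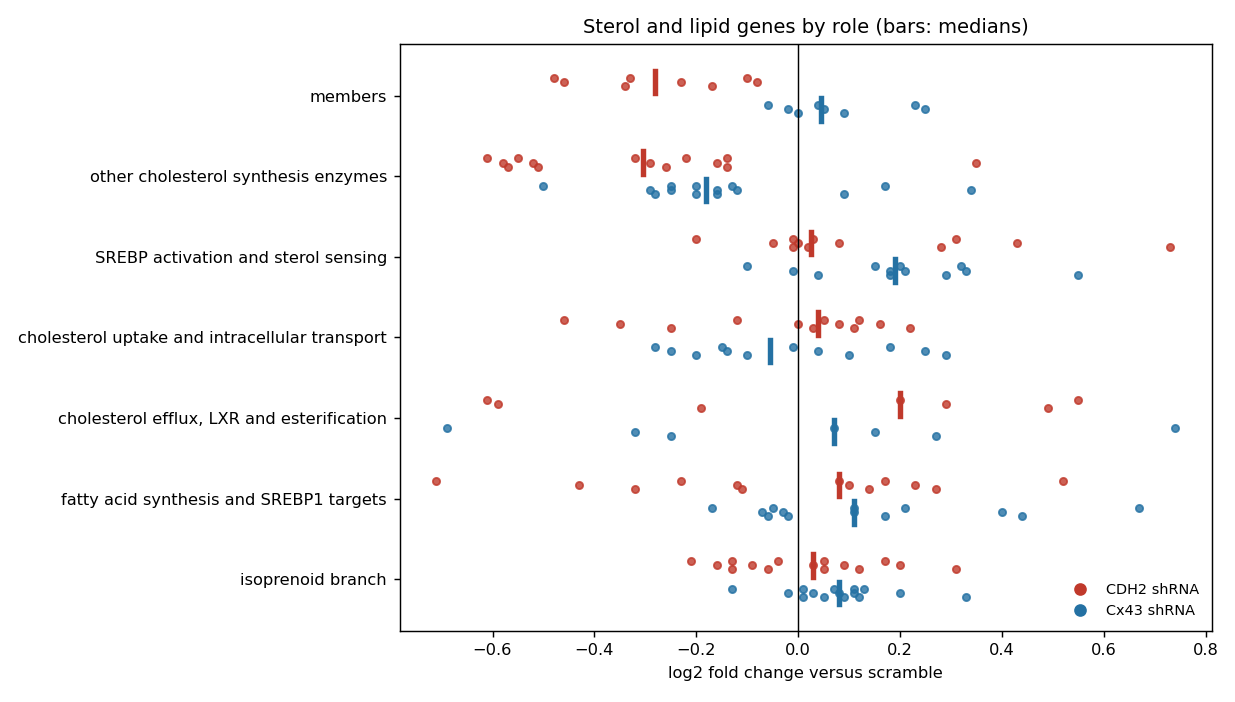
Log2 fold change versus scramble of every measured gene in 7 lists by role, CDH2 shRNA in red and Cx43 shRNA in blue, with vertical bars at the medians. With CDH2 shRNA the medians of the members (−0.28) and of the other enzymes (−0.30) are below 0, while those of the other 5 lists lie between 0.02 and 0.20. After the length and GC correction, not drawn, those 5 medians ran from −0.16 (fatty acid synthesis) to 0.04 (efflux). The members and the other enzymes then both stood at −0.28.

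The members varied together over the 8 libraries to different degrees. Pearson's r over the 28 pairs ran from 0.24, between HMGCS1 and FDPS, to 0.97, with a median of 0.80. The libraries share the run correction and the groups, so r describes these values and carries no test. Centred on each member's own mean and averaged over the 8, the levels were 0.09, −0.04 and 0.20 in scramble, −0.11, −0.16 and −0.31 in CDH2 shRNA and 0.07 and 0.25 in Cx43 shRNA. All 3 CDH2 shRNA libraries were below the other 5. The genes whose profile was most like this mean over the 8 libraries were IDH1, the cytosolic NADP-dependent isocitrate dehydrogenase, with r = 0.999, SLC35B2 with 0.998, GNG10 with 0.997, LZTS3 and PLXNB1 with 0.995, ORAI3 and MXI1 with 0.994, DRAM2 with 0.993, ABCA3 with 0.991 and NIPSNAP1 with 0.990. IDH1 measured 5.66, 5.53 and 5.77 in scramble, 5.47, 5.41 and 5.27 in CDH2 shRNA, and 5.66 and 5.84 in Cx43 shRNA. High r with this mean was not special to the genes named. FADS2, with r = 0.92, ranked 213 among all genes. Of the members, FDFT1 ranked highest, at 62 with r = 0.97, and HMGCS1 lowest, at 1594 with r = 0.66. A link between the genes named and the pathway was not tested.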

How the data were processed

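RNA-Seq of 8 libraries of sorted MDA-MB-231 CSCs was used, 3 scramble, 3 CDH2 shRNA and 2 Cx43 shRNA, grouped by the sample titles. The deposited values are log2(CPM + 1). Before deposit, the authors aligned reads to hg38 with STAR (2.6.1 per the submitters' processing notes) in Partek Flow, removed a low-quality sample, normalized to CPM, removed a run effect in a shrinkage model on log values and dropped low genes. The annotation, strand setting and depth are not given in the sources used here. Turned back, a library sums to 684411 to 727083 CPM. A line without a gene name (1 per file) was left out.

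The lmFit and eBayes functions of limma 3.58.1 (R 4.3.3) were applied to all 12939 genes in the 8 libraries, with group and replicate number as a block, since the run effect had been removed. The pairing by number comes from the labels. Deviations of same-numbered libraries correlated with r from −1 to 0.95 over 7 pairs, which the correction itself sets. P-values are two-sided with Benjamini-Hochberg adjustment over all genes. Called means an adjusted p under 0.05. The fold thresholds of the methods, 0.73 on the log2 scale for CDH2 and 1.5-fold for Cx43, were applied beside it. Length and GC content were taken from GENCODE v44 transcripts, matched to 11888 genes, and their trends fitted with mgcv 1.9.3. Promoters came from RefSeq. Figures used matplotlib 3.10.9. How well the limma p-values hold where residuals vary in 2 directions, as in the deposited values, was not tested.

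All 8 members, SREBF2, SREBF1, SCAP and INSIG2 were named, then every gene of another list past the thresholds, or the furthest from 0 in each comparison where none was, and the 10 genes most like the members. ACAT2, PMVK, MVD, LBR, ERLIN1, NCEH1, CYP27A1, FADS1 and GPAM were added after their values were seen. Results for some genes of the lists are not reported here. The members and lists were chosen with earlier results of these data known. Normalization, pseudocount, filter, variance trend, block, libraries in the fit, residual degrees of freedom and a length and GC correction were varied, the last 2 chosen after seeing the data.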

Additional observations from a re-analysis of the deposited data

How the results depend on the processing

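No member passed the adjusted p and the fold threshold together in any comparison under any alternative, and without the fold threshold 2 did for CDH2 shRNA versus scramble. The count of members with an adjusted p under 0.05 there, 2, was 4 with no replicate block, 0 with 2 residual degrees of freedom, 0 with only the 2 groups in the fit, 1 after the length and GC correction, and 0 to 2 without a library. Between the knockdowns the count of 0 became 4 with no replicate block and 0 to 3 without a library. The 5 other enzymes called lower became 10 with no replicate block, 0 with 2 residual degrees of freedom, 0 with only the 2 groups, and 0 to 7 without a library. Over all genes, 1846 calls for CDH2 shRNA versus scramble became 5607 with no replicate block, 296 with 2 residual degrees of freedom, 0 with only the 2 groups and 0 to 5309 without a library, and 156 for Cx43 shRNA became 3140, 82, 2807 and 0 to 2133 in that order, 494 after the length and GC correction and, with the 75% of genes of highest mean, 4. Between the knockdowns, 0 calls over all genes became 2784 with no replicate block. Causes of these changes were not tested beyond what each alternative leaves out. Of the 10 most similar genes, 5 were kept with the mean taken without HMGCS1, 6 without INSIG1, 6 without IDI1 and 5 without FDPS. The sterol element 1 letter shorter was found in 2 member genes.

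Among 105 pairs of gene and comparison, signs changed only for small differences, apart from single libraries. With only the compared groups, HMGCS1 stood at 0.06 (Cx43) and 0.07 (between knockdowns) and FDFT1 at 0.03 (Cx43). With quantile normalization, Cx43 values were −0.03 for SQLE, and 0.00 for FDPS and COQ2, and SCAP was −0.05 with CDH2 shRNA. With median centring SQLE and COQ2 were −0.01 (Cx43). After the length and GC correction SQLE was −0.04 and IDI1 −0.05 (Cx43), and EBP 0.15 and GPAM −0.05 (between knockdowns). Without a library, these ranges crossed 0. For CDH2 shRNA they were HMGCS1 −0.28 to 0.12, SQLE −0.18 to 0.03, SREBF1 −0.17 to 0.38, SCAP −0.03 to 0.03, INSIG2 −0.21 to 0.15 and SCD −0.49 to 0.33. For Cx43 shRNA they were HMGCS1 −0.29 to 0.17, SQLE −0.11 to 0.06, INSIG1 −0.11 to 0.62, IDI1 −0.13 to 0.22, FDFT1 −0.15 to 0.11, LSS −0.08 to 0.17, INSIG2 −0.39 to 0.19, MSMO1 −0.44 to 0.12, MBTPS2 −0.01 to 0.32, FADS2 −0.24 to 0.15, PDSS1 0.00 to 0.28 and COQ2 −0.04 to 0.05. Between the knockdowns they were HMGCS1 −0.27 to 0.18, INSIG2 −0.23 to 0.35, EBP −0.12 to 0.08, ABCA1 −0.70 to 0.20 and GPAM −0.09 to 0.18. The other pairs kept their sign, and the depth, unknown here, sets a limit that could not be measured.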
